A study of Mus musculus with 6 samples.

Results

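The genes of retinoid storage and metabolism, Lrat, Rbp4, Stra6, Dhrs3, Rdh10, Aldh1a1, Aldh1a2 and Rarb, were followed through single-cell libraries of mouse liver. They were chosen by symbol, as genes that store, carry, convert or sense vitamin A, and not by any measured value. Of these 8 genes, 7 were measured among the 19349 gene symbols of the count tables, and Stra6 was not analysed here. The 6 libraries came from male C57BL/6J mice that entered the study at 8 weeks of age and received a high-fat diet for 24 weeks as a model of nonalcoholic steatohepatitis. Treatment lasted 8 weeks, and was vehicle for 3 libraries and 10 mg/kg/day of ginkgetin, a biflavone of ginkgo leaves, for the other 3. All 6 libraries carry the high-fat diet, so vehicle is the diseased state and no chow-fed liver was compared. The cells were non-parenchymal liver cells run on the 10X Genomics platform, a preparation that keeps few hepatocytes. The labels do not say whether each library is a single mouse, so the p-values below measure the spread between these libraries.

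Vitamin A reaches the liver as retinyl ester, is carried in blood as retinol bound to its binding protein, and is stored as ester in the lipid droplets of hepatic stellate cells. Retinol is oxidized reversibly to retinal and then irreversibly to retinoic acid, which acts through nuclear receptors and is cleared by enzymes of the CYP26 family. Stellate cells that leave the quiescent state in injured liver are known for losing these stores.

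The libraries held 13128697 to 61796882 unique molecular identifiers (UMIs, each standing for a captured transcript molecule), and 27544 of 33168 barcodes passed the filter of 250 to 5000 genes and under 5% mitochondrial UMIs. Replicate 3 of both groups used a different set of cell barcodes from replicates 1 and 2, and its cells were deeper. Pairs of libraries shared 0 to 85 barcodes, at most 1.31% of the smaller library. Cells were clustered without the 8 genes and without the wider retinoid lists, and classes were named by markers as stellate-like, endothelial-like and so on. The stellate-like cluster showed 10 of its 10 markers, the hepatocyte-like and mature dendritic-like clusters 8 of 8, and the 5 endothelial-like clusters 6 to 8 of 8. Libraries with fewer than 10 cells of a class gave no value for that class. Levels are CPM, the UMIs of a gene per 1000000 UMIs summed over the cells of a class in 1 library, with mean ± SD over libraries.

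The 7 measured genes were counted in different cells. The gene Lrat encodes lecithin retinol acyltransferase, the enzyme that esterifies retinol for storage, and lies at chr3:82892579-82903973 on the minus strand of GRCm38. Of its 2287 UMIs, 85.5% were in the 181 stellate-like cells, which made up 0.657% of all cells. The level of Lrat in stellate-like cells was 1483 ± 594 CPM (n = 5), and its lowest stellate-like library, at 823 CPM, stood far above the highest library of any other named class, at 11.998 CPM, and above the unnamed cluster led by Vwf and Edn1, which reached 15.7 CPM in ginkgetin 1. At least 1 UMI of Lrat was counted in 166 of 181 stellate-like cells (91.7%), with a median of 8. In T cell-like cells, which are not a source of Lrat, the mean share with a UMI was 0.117% with vehicle and 0.596% with ginkgetin at medians of 3323.5 and 3044.0 UMIs per cell, against 9543.5 and 4930.0 in stellate-like cells.

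The gene Rbp4, at chr19:38116629-38125281 on the minus strand, encodes the plasma carrier that takes retinol out of the liver. Hepatocyte-like cells held 71.5% of its 14924 UMIs and cholangiocyte-like cells 10.2% over all libraries together. In single libraries these shares of Rbp4 ran from 0 to 82.4% and from 1.30% to 92.1%. The level of Rbp4 was 4788 ± 1512 CPM in hepatocyte-like cells (n = 5) and 323 ± 199 CPM in cholangiocyte-like cells (n = 6), and the libraries of these classes did not overlap. The other 11 named classes had means of 7.13 to 29.3 CPM, and an unnamed cluster led by Dpt and Clec3b, described below with Aldh1a2, had 53.4 ± 16.1 CPM of Rbp4 (n = 5). Rbp4 was counted at 39.6 UMIs per 100 UMIs of Alb, the albumin gene, in hepatocyte-like cells, and at 19.6, 24.2, 22.3 and 32.8 per 100 in stellate-like, endothelial-like, macrophage-like and T cell-like cells. In these last 4 classes Rbp4 therefore accompanied albumin transcripts at ratios of the same order as in hepatocyte-like cells, and whether their Rbp4 was free hepatocyte RNA was not tested. In cholangiocyte-like cells the ratio was 4.70 per 100.

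The reversible step is shared by a pair of enzymes. Rdh10 (chr1:16105774-16133734, plus strand) oxidizes retinol to retinal. Dhrs3 (chr4:144892827-144928209, plus strand) reduces retinal back to retinol, and its transcription is known to follow retinoic acid. Rdh10 was sparse, with 1021 UMIs in all, of which macrophage-like cells held 22.7% and endothelial-like cells 21.4% over all libraries together. In single libraries these shares of Rdh10 ran from 4.27% to 40.6% and from 9.71% to 40.2%. With vehicle, 177 UMIs of Rdh10 were in macrophage-like and 59 in endothelial-like cells, and with ginkgetin 55 and 160. The means of Rdh10 were 24.9 ± 18.4 CPM in stellate-like, 11.2 ± 7.78 in macrophage-like, 9.62 ± 4.19 in cholangiocyte-like and 8.12 ± 0.725 in endothelial-like cells, and the libraries of these neighbours overlapped. Dhrs3 was broad, with 19711 UMIs, of which endothelial-like cells held 46.7% and macrophage-like cells 30.9% over all libraries together. In single libraries these shares of Dhrs3 ran from 12.8% to 83.8% and from 1.80% to 66.2%. With vehicle, 1438 UMIs of Dhrs3 were in endothelial-like and 5711 in macrophage-like cells, and with ginkgetin 7771 and 373. The level of Dhrs3 was 280 ± 125 CPM in endothelial-like, 253 ± 44.1 in cholangiocyte-like and 225 ± 46.7 in stellate-like cells, which overlapped, then 125 ± 41.9 in macrophage-like and 88.1 ± 31.1 in hepatocyte-like cells, which also overlapped. The Dpt and Clec3b cluster had 38.6 ± 30.2 CPM of Rdh10 and 107 ± 45.01 CPM of Dhrs3 (n = 5), and T cell-like cells had 8.38 ± 3.67 CPM of Dhrs3.

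Retinal is oxidized to retinoic acid by aldehyde dehydrogenases of the 1A family. Aldh1a1 (chr19:20492715-20643465, plus strand) is the form of the liver parenchyma, and 48.5% of its 3640 UMIs were in hepatocyte-like, 28.6% in cholangiocyte-like and 5.71% in stellate-like cells. In single libraries these shares of Aldh1a1 ran from 0 to 69.1%, from 10.5% to 71.7% and from 2.68% to 10.7%. The level of Aldh1a1 was 794 ± 321 CPM in hepatocyte-like cells, above every library of cholangiocyte-like cells at 207 ± 60.6 and of stellate-like cells at 167 ± 44.0, and these last classes overlapped. The other 10 named classes reached 15.4 CPM in their highest library, while an unnamed cluster of 105 cells led by Dpt and Clec3b had 173 ± 37.3 CPM (n = 5), near the stellate-like level. Reads of Aldh1a1 can be split with its near-identical neighbour Aldh1a7, so the value of Aldh1a1 in hepatocyte-like cells carries that uncertainty.

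Aldh1a2 (chr9:71215789-71296243, plus strand), the retinaldehyde dehydrogenase known from mesothelium and from dendritic cells of the gut, had 240 UMIs in all. Mature dendritic-like cells, marked by Ccr7, Fscn1 and Ccl22, held 27.1% of them in 135 cells, and the unnamed Dpt and Clec3b cluster held 23.3% in 105 cells. That cluster split into a fibroblast-like group of 55 cells and a mesothelial-like group of 50 cells. The level of Aldh1a2 in mature dendritic-like cells was 54.5 ± 23.2 CPM (n = 4), and its lowest library there, at 24.9 CPM, exceeded the highest library of the other 12 named classes, at 10.3 CPM. In the unnamed Dpt and Clec3b cluster it was 55.4 ± 31.2 CPM (n = 5), from 16.1 to 89.0, which overlapped the mature dendritic-like libraries. Stellate-like cells, in contrast to their Aldh1a1, had 0 or 6.95 CPM of Aldh1a2 in each library.

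Rarb (chr14:16430839-16819156, minus strand) encodes retinoic acid receptor beta, a receptor that is itself a classical retinoic acid target. Endothelial-like cells held 83.4% of its 1682 UMIs. Its level was 44.7 ± 17.4 CPM in endothelial-like and 35.5 ± 17.3 in stellate-like cells, which overlapped, and 14.6 ± 3.66 in cholangiocyte-like cells. The highest library of the other 10 named classes was at 10.04 CPM, and the unnamed cluster led by Vwf and Edn1 reached 20.99 CPM.

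**Figure D1:**
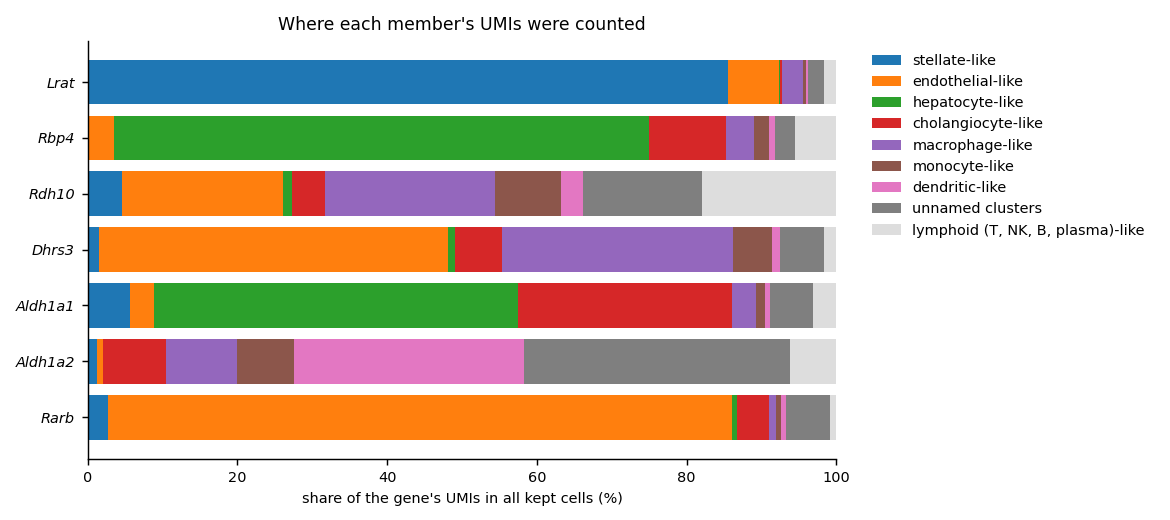
Share of each gene's UMIs over all kept cells (x axis, percent) by cell class, 1 bar per gene. Lrat sits almost whole in stellate-like cells (85.5%), Rarb in endothelial-like cells (83.4%) and Rbp4 in hepatocyte-like cells (71.5%), while Rdh10 and Dhrs3 are spread. Shares pool all libraries, and that of Rbp4 in hepatocyte-like cells ran from 0 to 82.4% in single libraries.

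**Figure D2:**
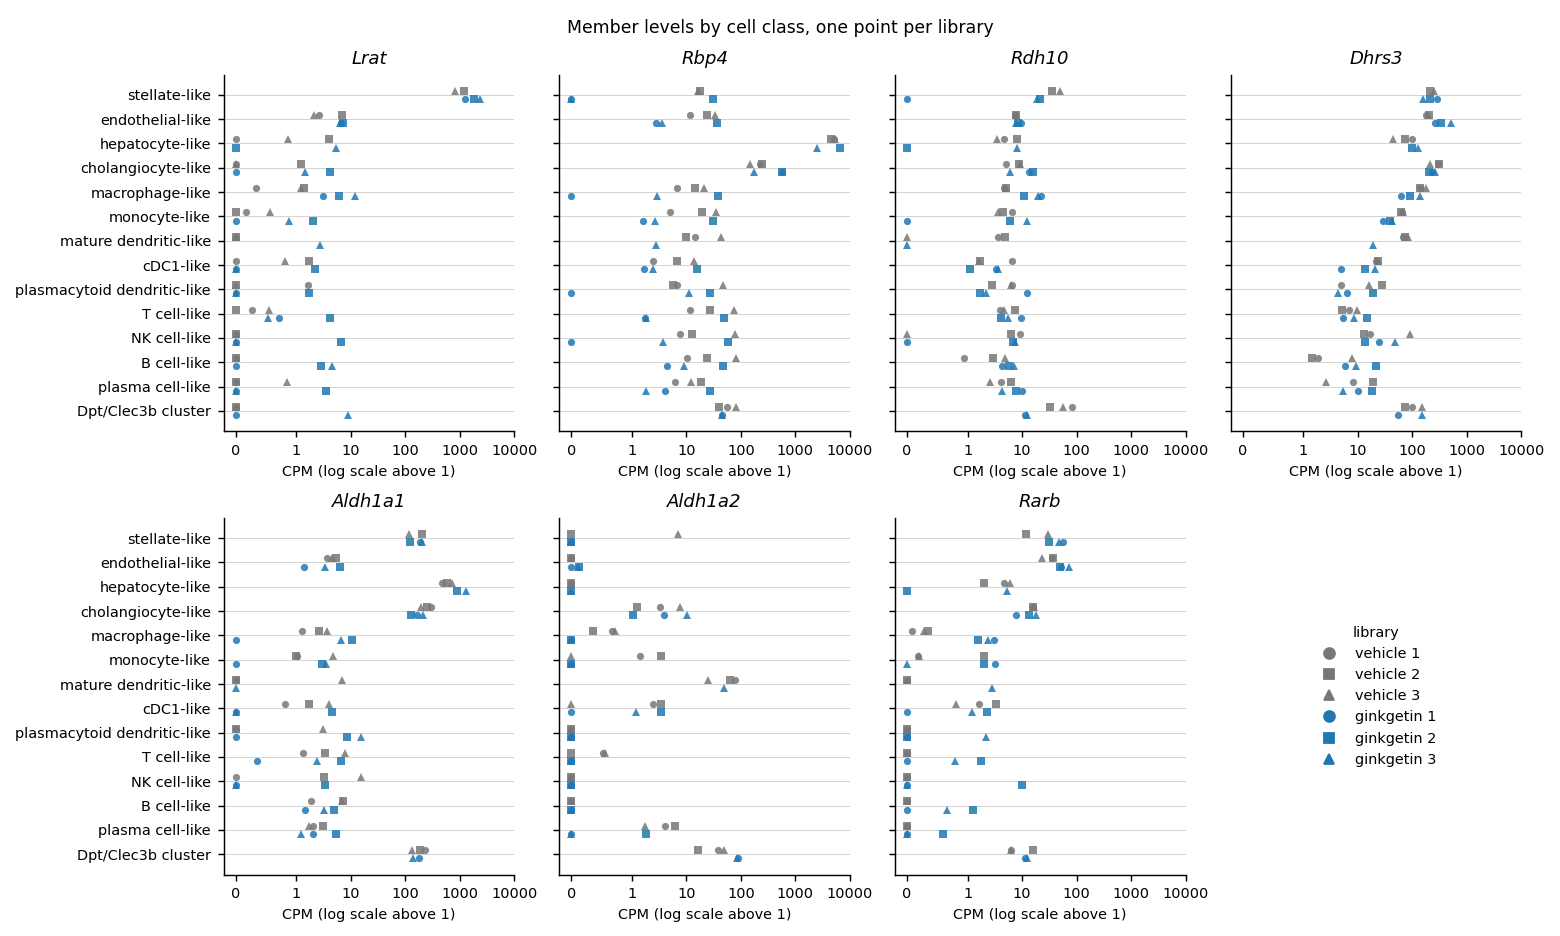
Level of each of the 7 measured genes (x axis, CPM, log scale above 1) in each cell class, 1 point per library with colour for the group and shape for the replicate. Lrat, Rbp4, Aldh1a1 and Aldh1a2 each have 1 named class whose libraries all stand above those of the other named classes, whereas the points of Dhrs3 spread over endothelial-like, cholangiocyte-like and stellate-like cells together.

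A start of Rarb is shown because, of the 7 genes with a start-site window, it alone held, in the bases searched, a direct repeat of the half-sites that retinoic acid receptors bind. Cyp26a1, from the list of receptors, degradation and response, is set beside it. The only other hit among the genes of the retinoid lists, a pair with 1 base between in the window of Bco1, a carotenoid cleavage enzyme, lies 56 to 44 bases before its start on the opposite strand. The sequences are from RefSeq, build GRCm38.p6, read 5′ to 3′ on the strand of the gene at chr14:16575506-16575535 and chr19:37697770-37697799, and the capitals mark the repeat. The Rarb window lies inside the span of the gene given above, at the start of shorter transcripts and not at the 5′ end of that span.
Rarb: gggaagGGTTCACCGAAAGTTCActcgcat
Cyp26a1: taaagaTGAACTTTGGGTGAACTaatttgt

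The half-site AGGTCA was searched along with its variant AGTTCA. A further variant was GGGTCA, and the last variant was GGTTCA. Any pair of these counted when repeated in the same direction with 1, 2 or 5 bases between them, on either strand. The 250 bases before each start were searched, and the windows of 1 chromosome were left out. The spacing of 5 bases occurred in 29 of the 32851 windows left (0.0883%), the spacing of 1 base in 54 (0.164%) and that of 2 bases in 57 (0.174%). The Rarb repeat has a 5-base spacing and lies 53 to 37 bases before the start, and that of Cyp26a1 lies 32 to 16 bases before it on the opposite strand. In the bases searched, the windows of Lrat (1), Rbp4 (2), Stra6 (4), Dhrs3 (3), Aldh1a1 (2) and Aldh1a2 (1) held none of these letters. A match is a description of the sequence, and no match says only that these letters are not in the bases searched.

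Across the 13 classes, the genes whose profile of mean log2(CPM + 1) was most like that of each gene, by Pearson r, were named as a description, since classes of 1 library share depth and free RNA. They were Colec10 (0.995), Sparcl1 (0.993) and Ccbe1 (0.992) for Lrat. For Rbp4 they were Hnf4a (0.996), Ldhd (0.995) and Fgg (0.991), and for Aldh1a1 they were Me1 (0.992), Gsta4 (0.988) and Fxyd1 (0.987). Rarb had Timp3 (0.974), Tcaf1 (0.972) and Grb10 (0.972), and Aldh1a2 had Nudt17 (0.946), Dscaml1 (0.918) and Mab21l3 (0.915). The closest profiles to Dhrs3 were Nr2f6 (0.948), Wsb2 (0.939) and Aamp (0.935), and to Rdh10 they were Urgcp (0.927), Eri3 (0.921) and B4gat1 (0.907).

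The comparison of ginkgetin with vehicle asked whether these genes moved in the cells that use them. It was fitted per class on summed counts with edgeR's quasi-likelihood test, and a call needed a fold over 2 and a p under 0.05 after Benjamini-Hochberg adjustment over all genes of the class. In stellate-like cells, where retinoid is stored, vehicle 1 had 6 cells and gave no value. Lrat was at 1209.9 and 823 CPM in vehicle 2 and 3, and at 1226, 1828 and 2328 CPM in ginkgetin 1, 2 and 3. All 3 ginkgetin libraries lay above both vehicle libraries, the lowest by a small margin. The log2 fold change of Lrat was 0.76 (SE 0.45), with an adjusted p of 0.806 by edgeR, so the difference did not pass the test.

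Rarb in stellate-like cells was at 11.98 and 30.1 CPM with vehicle and at 56.6, 31.4 and 47.6 CPM with ginkgetin. The groups of Rarb did not overlap, and the log2 fold change was 0.83 ± 0.63 SE (edgeR, adjusted p 0.865). Rdh10, counted with 47 UMIs in this class, was at 35.9 and 48.7 CPM with vehicle and at 0, 20.9 and 19.1 CPM with ginkgetin. Here every ginkgetin library lay below both vehicle libraries, with a log2 fold change of -1.36 (SE 0.76) and an adjusted p by edgeR of 0.793.

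Dhrs3 in stellate-like cells was at 216 and 253 CPM with vehicle and at 283, 213 and 159 CPM with ginkgetin, and Aldh1a1 was at 204 and 116 CPM against 189, 122 and 203 CPM. For both enzymes the groups overlapped, with log2 fold changes of -0.20 (adjusted p by edgeR 0.973) and 0.04 (adjusted p by edgeR 1.0). Of the 5 genes that passed the count filter in stellate-like cells, edgeR and DESeq2 each called 0 and edgeR gave 0 an unadjusted p under 0.05, against 1 of 5157 genes called by edgeR (0.0194%). Not overlapping were 2 of the 5, Lrat and Rarb, on the higher and 1, Rdh10, on the lower side, where 12.5% of all genes were higher and 11.8% lower without overlap. Rarb passed the count filter only through ginkgetin libraries and Rdh10 only through vehicle libraries, which fixes their side, so nothing is read from that count. With the replicate number as a block, 175 of 5157 genes (3.39%) and 0 of the 5 were called.

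Markers of other cells differed between the groups of stellate-like cells. The summed endothelial markers in stellate-like cells, with 8 of 8 detected, were 120 to 223 CPM with vehicle and 189 to 900.0 CPM with ginkgetin, with overlap. Fibroblast markers (7 of 8) were 569 to 1585 CPM against 197 to 226 CPM, macrophage markers (8 of 8) 236 to 246 CPM against 47.6 to 94.2 CPM, and hepatocyte markers (7 of 8) 355 to 365 CPM against 0 to 241 CPM, without overlap in each. Their part in the values of Lrat, Rarb and Rdh10 was not tested. In stellate-like cells thinned to 1000 UMIs each, 42.4% ± 4.91 carried a UMI of Lrat with vehicle (n = 2) and 76.8% ± 8.84 with ginkgetin (n = 3; exact permutation test, two-sided, p = 0.1, the smallest the design allows). Unthinned shares of Lrat were 86.6% and 94.3%, and thinning left out 2 vehicle cells and 0 ginkgetin cells. The thinned shares of Rarb were 1.39% ± 1.96 and 3.29% ± 4.43 (exact permutation p = 0.9) and those of Rdh10 5.56% ± 3.93 and 0.926% ± 1.604 (exact permutation p = 0.3), and for both genes the groups were not separated in this measure.

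Endothelial-like cells were the largest class, with 7257 cells, and their share of the library was 13.6% ± 3.60 with vehicle and 36.5% ± 6.51 with ginkgetin (n = 3 each). Dhrs3 was at 178, 202 and 191 CPM in vehicle 1, 2 and 3 and at 267, 335 and 505 CPM in ginkgetin 1, 2 and 3, or 190.4 ± 12.5 against 369 ± 123 CPM. Every ginkgetin library exceeded every vehicle library. The log2 fold change of Dhrs3 was 0.75 (SE 0.22) and edgeR gave an adjusted p of 0.224, so it was not called. With the replicate block the adjusted p by edgeR was 0.0350 and with a block for the barcode set it was 0.0227, at a fold under 2 in both.

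Rarb in endothelial-like cells was at 34.8, 36.5 and 23.2 CPM with vehicle and at 50.8, 50.03 and 73.3 CPM with ginkgetin. Its groups did not overlap either, and the log2 fold change was 0.67 ± 0.29 SE (edgeR, adjusted p 0.376). Within the barcode sets, the log2 ratio of the mean CPM was 0.50 in replicates 1 and 2 and 1.66 in replicate 3 for Rarb, and 0.66 and 1.40 for Dhrs3. Rbp4 was at 11.8, 24.04 and 33.1 CPM with vehicle and 2.80, 36.8 and 3.56 CPM with ginkgetin, which overlapped (log2 fold change -0.70 ± 1.01 SE, adjusted p 0.848 by edgeR). Rdh10 had 7.55 to 9.45 CPM over the 6 endothelial-like libraries, Lrat 2.11 to 7.18 CPM and Aldh1a1 1.40 to 6.41 CPM.

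Of the 6 genes that passed the filter in endothelial-like cells, edgeR and DESeq2 each called 0 and edgeR gave 1, Dhrs3, an unadjusted p under 0.05, against 51 of 10152 genes called by edgeR (0.502%). Dhrs3 and Rarb were the 2 of 6 without overlap on the higher side, where 12.5% of all genes stood, and 0 of 6 did so on the lower side (5.76% of all genes). With the replicate block 435 of 10152 genes (4.28%) were called. After thinning to 1000 UMIs, the share of endothelial-like cells with a UMI of Dhrs3 was 17.4% ± 1.35 in the vehicle and 28.8% ± 8.23 in the ginkgetin libraries, and that of Rarb 3.11% ± 0.575 and 5.49% ± 1.34 (n = 3 each; exact permutation p = 0.1 for each, the smallest possible). In thinned T cell-like cells these shares were 0.756% and 1.02% for Dhrs3 and 0 for Rarb in each library. Lrat stood at 3.82 and 5.73 UMIs per 100 stellate-marker UMIs in vehicle and ginkgetin endothelial-like cells, against 3.24 and 5.22 in stellate-like cells. Whether the endothelial Lrat came from free stellate RNA was not tested.

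Markers moved with the groups in endothelial-like cells too. Their own summed endothelial markers (8 of 8 detected) were 8463 to 10743 CPM with vehicle and 12872 to 16776 CPM with ginkgetin. Macrophage markers (8 of 8) were 172 to 309.8 CPM against 49.7 to 134 CPM, and mesothelial markers (4 of 5) 20.2 to 50.8 CPM against 2.69 to 4.94 CPM. None of these ranges overlapped, and their part in the values of Dhrs3 and Rarb was not tested.

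The endothelial-like clusters divided by library. Cells of vehicle 1 and 2 made up a cluster led by Fabp4, Lyve1 and Ctgf, those of vehicle 3 one led by Cavin2, Cebpd and Ednrb, those of ginkgetin 1 and 2 were led by Ehd3, Sepp1 and Gpr182 or by Wnt2, Kit and Plpp1, and those of ginkgetin 3 by Selenop, Cavin2 and Tcim. Endothelial-like cells, joined here by the 709 cells of an unnamed cluster led by Vwf and Edn1, were also divided by markers of the central vein side (Wnt2, Rspo3, Kit, Wnt9b, Cdh13) and of larger vessels (Vwf, Edn1, Bmp4, Sele, Selp). This gave 1636 cells with 2 or more pericentral markers, 426 with 2 or more vascular markers and 5821 with fewer than 2 of either, and cells with both sets were left out. In cells with fewer than 2 of either set, Dhrs3 was at 143, 158 and 172 CPM with vehicle and at 228, 269.7 and 411 CPM with ginkgetin, again without overlap. In cells with 2 or more pericentral markers Dhrs3 was higher in both groups, at 244, 365 and 288 CPM against 341, 491 and 665 CPM, and there the groups overlapped.

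Rarb showed the same order of subsets. It was at 55.6, 61.6 and 34.1 CPM with vehicle and 83.8, 81.3 and 108 CPM with ginkgetin in pericentral-marker cells, and at 25.2, 29.4 and 19.7 against 38.4, 37.9 and 47.4 CPM in cells with fewer than 2 of either set. In both subsets of Rarb the groups did not overlap. Cells with vascular markers numbered 14 to 141 per library, and their Dhrs3 was at 79.0, 92.9 and 119 CPM against 39.1, 93.9 and 92.3 CPM.

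**Figure D3:**
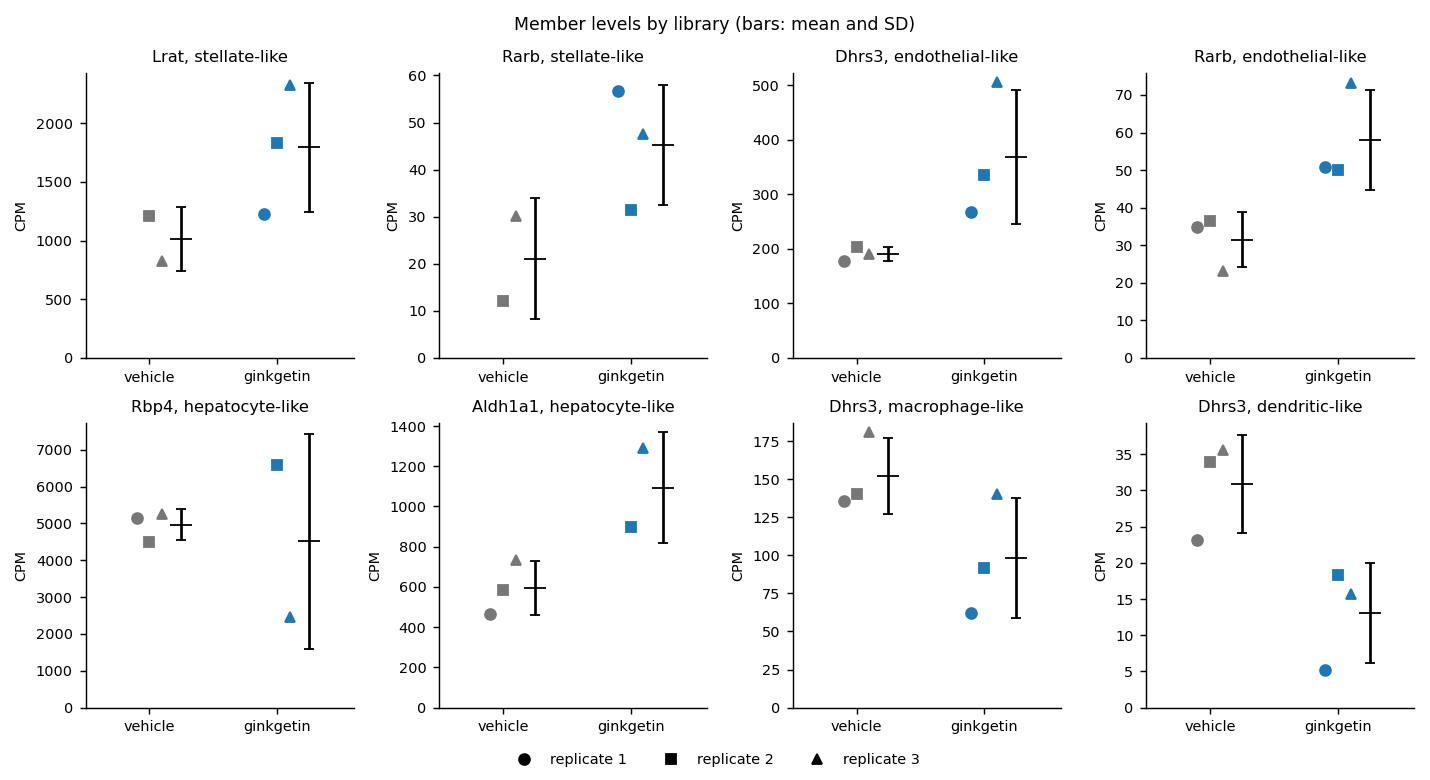
Level (y axis, CPM) of Lrat, Rarb, Dhrs3, Rbp4 and Aldh1a1 in the named classes, 1 point per library (grey for vehicle, blue for ginkgetin, shape for the replicate), with mean and SD as bars. Dhrs3 and Rarb in endothelial-like cells and Lrat in stellate-like cells are higher in every ginkgetin library, whereas Rbp4 in hepatocyte-like cells overlaps.

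In hepatocyte-like cells, which make circulating carrier, ginkgetin 1 had 0 cells and gave no value. Rbp4 was at 5153, 4490.5 and 5268 CPM in vehicle 1, 2 and 3 and at 6581 and 2448 CPM in ginkgetin 2 and 3. The ginkgetin libraries lay on either side of all vehicle libraries, and the log2 fold change of Rbp4 was -0.30 ± 0.48 SE (edgeR, adjusted p 0.803). Without ginkgetin 3 the log2 fold change was 0.17.

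Aldh1a1 in hepatocyte-like cells was at 465, 583 and 732 CPM with vehicle and at 899 and 1289 CPM with ginkgetin. Both ginkgetin libraries exceeded all vehicle libraries, and the log2 fold change was 0.75 ± 0.33 SE (edgeR, adjusted p 0.369). Dhrs3 was at 99.6, 73.2 and 44.0 CPM with vehicle and at 97.1 and 127 CPM with ginkgetin, with overlap (log2 fold change 0.55 ± 0.52 SE, adjusted p 0.626 by edgeR). After thinning, the share of hepatocyte-like cells with a UMI of Aldh1a1 was 42.2% ± 10.0 with vehicle and 42.7% ± 24.96 with ginkgetin (exact permutation p = 1.0), so the order of the CPM values of Aldh1a1 was not seen in this share. Thinning left out 10 of 376 vehicle and 45 of 188 ginkgetin hepatocyte-like cells, and the unthinned shares were 79.3% and 74.1%.

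Of the 3 genes tested in hepatocyte-like cells, 0 were called, as were 0 of 4070 genes (0%) by edgeR, while 573 genes had an unadjusted p under 0.05, DESeq2 called 77 genes and the replicate block 149 (3.66%). Aldh1a1 was the 1 of 3 without overlap on the higher side, against 20.2% of all genes, and 0 of 3 lay on the lower side, against 17.6%. Endothelial markers in hepatocyte-like cells (8 of 8 detected) were 29.7 to 202 CPM with vehicle and 1991 and 890.1 CPM in ginkgetin 2 and 3, without overlap. Cholangiocyte markers (5 of 6) were 58.6 to 427 CPM with vehicle and 3036 and 55.5 CPM in ginkgetin 2 and 3, and ginkgetin 2 rested on 12 cells. The part of both in the levels of Rbp4 and Aldh1a1 was not tested.

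Cholangiocyte-like cells carried the next levels of both genes. Rbp4 was at 221, 239 and 148 CPM with vehicle and at 578, 574 and 176 CPM with ginkgetin, with overlap (log2 fold change 1.17 ± 0.46 SE, adjusted p 0.337 by edgeR). Aldh1a1 was at 299, 247 and 197 CPM with vehicle and at 164, 128 and 209 CPM with ginkgetin, with overlap in the opposite order (log2 fold change -0.57 ± 0.25 SE, adjusted p 0.387 by edgeR). Dhrs3 was at 303, 307 and 215 CPM with vehicle and at 227, 206 and 259 CPM with ginkgetin, with overlap (log2 fold change -0.24 ± 0.23 SE, adjusted p 0.673 by edgeR). Of the 4 genes tested in cholangiocyte-like cells 0 were called, against 14 of 7947 genes (0.176%).

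In dendritic-like cells, which can make retinoic acid for lymphocytes, the classes cDC1-like, mature and plasmacytoid dendritic-like were summed to 903 cells. Dhrs3 was at 23.1, 34.0 and 35.6 CPM with vehicle and at 5.18, 18.3 and 15.7 CPM with ginkgetin. Every ginkgetin library lay below every vehicle library, with a log2 fold change of -1.22 (SE 0.37) and an adjusted p by edgeR of 0.308. Aldh1a2, counted with 74 UMIs in dendritic-like cells, was at 11.8, 13.1 and 5.52 CPM with vehicle and at 0, 2.61 and 11.48 CPM with ginkgetin. The groups of Aldh1a2 overlapped, and at under 20 CPM in both no test is reported for it.

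Mature dendritic-like cells, which held most of this Aldh1a2, numbered 38, 24 and 40 in the vehicle sums and 3, 9 and 21 in the ginkgetin sums, and their part in the summed level was not tested. Within mature dendritic-like cells Aldh1a2 was at 79.5, 64.2 and 24.9 CPM with vehicle and at 49.5 CPM in ginkgetin 3, the 1 ginkgetin library with enough cells, which lay inside the vehicle range and was not tested. Dhrs3 in the same cells was at 68.6, 74.1 and 83.7 CPM against 19.3 CPM. In cDC1-like cells, whose numbers were closer between groups, Dhrs3 was at 21.8, 23.6 and 23.5 CPM with vehicle and 5.03, 13.5 and 20.3 CPM with ginkgetin, without overlap, as for 13.5% of all genes of that class on the lower side (log2 fold change -0.71 ± 0.39 SE, adjusted p 0.401 by edgeR). In plasmacytoid dendritic-like cells Dhrs3 was at 4.96, 28.4 and 15.8 CPM against 6.22, 18.7 and 4.39 CPM, with overlap. An unnamed cluster of 716 cells led by Cd209a and Clec10a, which was not in the sum, had Dhrs3 at 41.8, 32.6 and 47.97 CPM with vehicle and 11.2, 26.1 and 44.8 CPM with ginkgetin, also with overlap. Of the 3 genes tested in dendritic-like cells 0 were called, as were 0 of 8140 genes (0%) by edgeR, where 1037 genes had an unadjusted p under 0.05, DESeq2 called 32 and the replicate block 20 (0.246%). Dhrs3 was the 1 of 3 without overlap on the lower side, against 9.66% of all genes, and 0 of 3 lay on the higher side, against 7.62%. Endothelial markers in dendritic-like cells, 8 of 8 detected, were 170.0 to 209 CPM with vehicle and 364 to 949 CPM with ginkgetin, and macrophage markers, also 8 of 8, were 215 to 511 CPM against 86.7 to 178 CPM. Their part in the values of Dhrs3 was not tested.

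The unnamed cluster led by Dpt and Clec3b had Aldh1a2 at 37.8, 16.1 and 49.3 CPM with vehicle and at 89.0 and 85.01 CPM in ginkgetin 1 and 3. Its Rdh10 was at 81.9, 32.2 and 55.5 CPM against 11.1 and 12.1 CPM. These values rested on 12 to 33 cells per library and were not tested. The mix of the cluster also varied, with 6, 10 and 10 fibroblast-like and 14, 7 and 5 mesothelial-like cells in vehicle 1, 2 and 3, 3 and 9 in ginkgetin 1, and 23 and 10 in ginkgetin 3. The part of this mix in the values of Aldh1a2 and Rdh10 was not tested.

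Macrophage-like cells held the second share of Dhrs3 over all libraries together and the largest with vehicle. They were compared because that gene exceeded 20 CPM there. Dhrs3 was at 136, 140.1 and 181 CPM in vehicle 1, 2 and 3 and at 62.3, 91.6 and 141 CPM in ginkgetin 1, 2 and 3. The highest ginkgetin library lay just above the lower vehicle libraries, so the groups overlapped on the CPM scale. Dhrs3 fell by 1.10 on the log2 scale (SE 0.24), and edgeR gave an adjusted p of 0.0285. That estimate is relative to the scaled library sizes, since the median log2 ratio of CPM over all macrophage-like genes was 0.44, against 0.15 in endothelial-like cells. On mean CPM alone the log2 ratio of Dhrs3 was -0.63.

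Rdh10 and Lrat were also called in macrophage-like cells and are named after their values were seen, since most of their levels were under 20 CPM. Rdh10 was at 4.62, 5.08 and 5.11 CPM with vehicle and at 21.8, 10.7 and 19.7 CPM with ginkgetin, and it rose by 1.31 ± 0.33 SE on the log2 scale (edgeR, adjusted p 0.0433). Lrat, with 64 UMIs, was at 0.336, 1.40 and 1.21 CPM with vehicle and at 3.11, 6.11 and 11.998 CPM with ginkgetin. Neither gene overlapped between groups. Only ginkgetin libraries lay over the 2.57 CPM that the count filter asks of a library in this class, with 1, 4 and 25 UMIs of Lrat, so a gene that entered the test in this way had to differ and nothing is drawn from its call. The 30 UMIs with ginkgetin were in 21 of 889 cells, 16 of them with 1 UMI. Lrat was at 1.63 and 8.29 UMIs per 100 stellate-marker UMIs in vehicle and ginkgetin macrophage-like cells, and in T cell-like cells at 1.32 and 3.70.

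Of the 5 genes tested in macrophage-like cells, 3 were called, counting Lrat, against 1078 of 10106 genes (10.7%), 5.54% higher and 5.13% lower. Not overlapping were 2 of 5 on the higher side, where 33.1% of all genes stood, and 0 of 5 on the lower side (7.97%). With the replicate block 1620 genes (16%) and the same 3 genes were called. Calls were lost when libraries were left out, while Dhrs3 and Rdh10 kept their direction. None of the 3 was called without vehicle 1, vehicle 2, ginkgetin 1 or ginkgetin 2, Lrat and Dhrs3 were called without vehicle 3, and Dhrs3 alone was called without ginkgetin 3. The log2 fold changes with a library left out were -1.37 to -0.98 for Dhrs3 and 1.04 to 1.55 for Rdh10. The study's own filter was on UMIs and not on genes per cell. With the range of 250 to 5000 applied to UMIs per cell, 0 of these genes were called. Dhrs3 was then at -0.92 ± 0.29 SE (edgeR, adjusted p 0.0990), and Rdh10 and Lrat did not pass the count filter.

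The macrophage-like clusters differed between the groups too. Vehicle 1 and 2 filled a cluster led by Fabp7, C1qc and Cd207, vehicle 3 clusters led by Cxcl2, Cd300c2 and H2-M2 and by Mmp12, Clec4f and Cd5l, and ginkgetin cells a cluster led by Marco, C6 and Cd163. Dhrs3 was at 136 CPM in the Fabp7 cluster, 221 in the Cxcl2 cluster, 123 in the Mmp12 cluster and 113 in the Marco cluster, and Rdh10 was at 21.4 CPM in the Marco cluster and at 4.88, 3.92 and 6.60 in the Fabp7, Cxcl2 and Mmp12 clusters. Endothelial markers in macrophage-like cells were 182 to 209 CPM with vehicle and 881 to 1548 CPM with ginkgetin, without overlap. Cholangiocyte markers (6 of 6 detected) were 249 to 667 against 52.9 to 199.98 CPM, also without overlap. Stellate markers, at 36.9 to 69.1 against 59.2 to 163 CPM, overlapped. Median depth was 10780 UMIs per cell with vehicle and 2215 with ginkgetin. The part of these in the values of Dhrs3, Rdh10 and Lrat was not tested. After thinning to 1000 UMIs, the share of macrophage-like cells with a UMI of Dhrs3 was 13.6% ± 0.951 in the vehicle and 9.15% ± 2.13 in the ginkgetin libraries (exact permutation p = 0.1), and that of Rdh10 0.617% ± 0.218 and 1.85% ± 0.999 (exact permutation p = 0.1). The thinned share for Lrat was 0.0894% ± 0.0917 and 0.760% ± 0.669 (exact permutation p = 0.4), with 0 in ginkgetin 1, so the groups of Lrat overlapped in this measure. The thinned sets lacked 2 cells of vehicle and 58 of ginkgetin libraries, and without thinning the shares were 66.004% and 22.7% for Dhrs3, 5.29% and 5.51% for Rdh10, and 1.11% and 1.86% for Lrat.

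**Figure D4:**
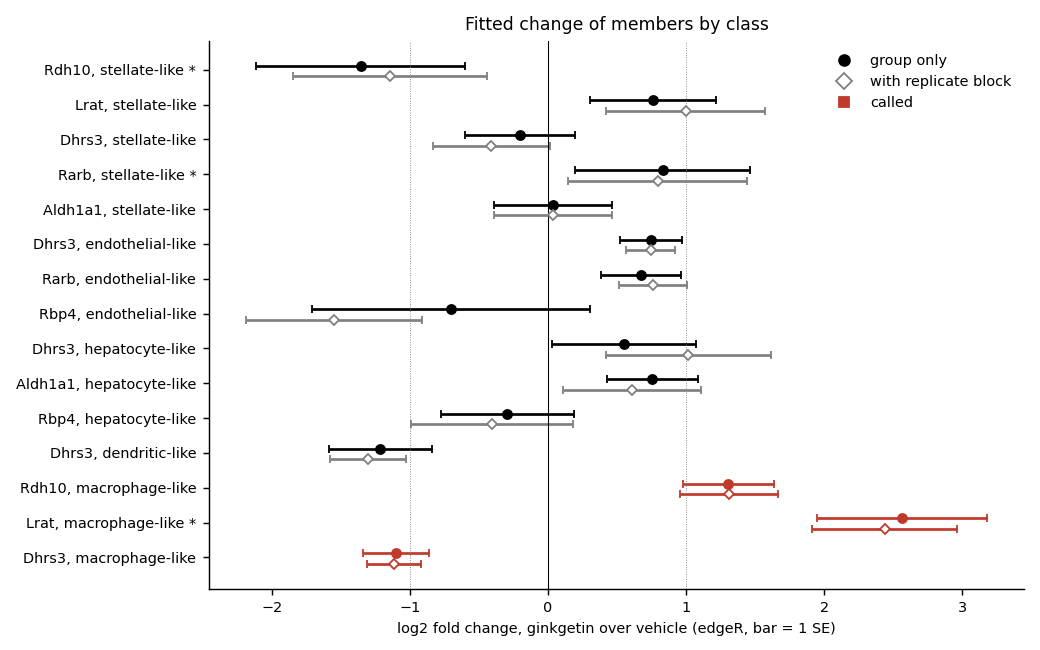
Fitted log2 fold change of ginkgetin over vehicle (x axis) with its SE as a bar, for the named genes in stellate-like, endothelial-like, hepatocyte-like, dendritic-like and macrophage-like cells. Filled points have group as the only term, open diamonds add the replicate block, red marks a call, and an asterisk marks a gene that passed the count filter through 1 group only. Dhrs3 lies above 0 in endothelial-like cells (0.75) and below 0 in macrophage-like cells (-1.10) and dendritic-like cells (-1.22).

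The change of Dhrs3 was then compared between the 2 classes that hold most of it, a comparison added after seeing the data. In 1 model of both classes, the log2 fold change in macrophage-like minus that in endothelial-like cells was -2.0 (SE 0.22), and edgeR gave an adjusted p of 0.00024, where 1326 of 11305 genes (11.7%) had an adjusted p under 0.05. The joint model scales both classes together, so this difference is not that of the separate fits above. Within libraries, the level of Dhrs3 in endothelial-like cells was 1.31, 1.45 and 1.06 times that in macrophage-like cells with vehicle and 4.28, 3.65 and 3.59 times with ginkgetin. The ratios of Dhrs3 did not overlap, with means of 1.27 ± 0.197 and 3.84 ± 0.382 (n = 3 each), and the exact permutation test gave p = 0.1, two-sided, the smallest value that 3 against 3 libraries allow. Leaving out each library in turn gave differences of -2.13 to -1.85, with adjusted p by edgeR from 0.000331 to 0.00465. With the range on UMIs per cell, the difference for Dhrs3 was -1.87 ± 0.32 SE (edgeR, adjusted p 7.91e-05), an alternative chosen after seeing the data. For Rdh10 the same difference was 1.28 ± 0.40 SE (edgeR, adjusted p 0.0510).

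In monocyte-like cells Dhrs3 was at 64.1, 61.0 and 69.1 CPM with vehicle and at 28.9, 38.3 and 43.4 CPM with ginkgetin, without overlap, as for 9.29% of all genes of that class on the lower side (log2 fold change -0.91 ± 0.18 SE, adjusted p 0.187 by edgeR). It was not called there, nor was any of 8410 genes (0%) by edgeR, where 1218 genes had an unadjusted p under 0.05. Rbp4 reached 20 CPM in lymphocytes too. It was at 11.9, 27.1 and 75.3 CPM with vehicle and 1.78, 49.02 and 1.84 CPM with ginkgetin in T cell-like cells (log2 fold change -1.15 ± 1.27 SE, adjusted p 0.783 by edgeR). In B cell-like cells Rbp4 was at 10.3, 23.6 and 80.9 CPM against 4.34, 47.7 and 9.14 CPM (log2 fold change -0.72 ± 0.92 SE, adjusted p 0.769 by edgeR), and the groups overlapped in both. Summed over all kept cells of a library, Dhrs3 ranged over 91.9 to 117 CPM with vehicle and 85.8 to 209 CPM with ginkgetin, while Rarb was at 4.06, 4.47 and 2.90 CPM against 14.1, 20.4 and 27.8 CPM. Those sums also carry the larger share of endothelial-like cells, and more cells of a type and more RNA per cell cannot be told apart in them.

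**Figure D5:**
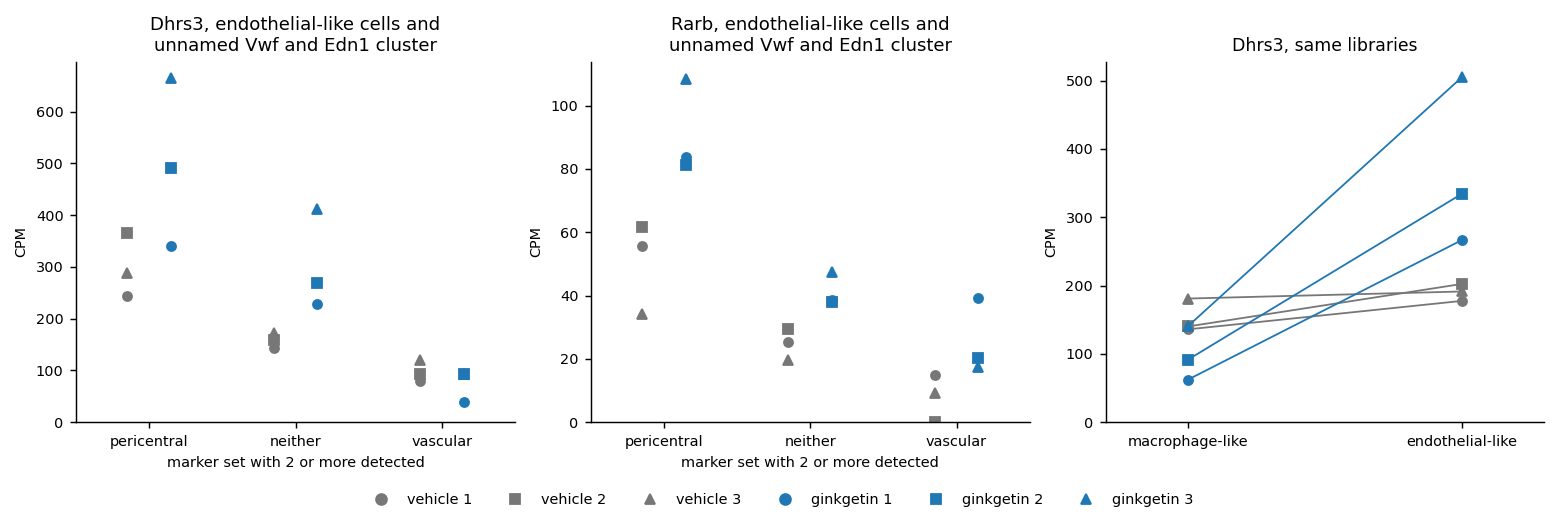
Level (y axis, CPM) of Dhrs3 and Rarb in endothelial-like cells and the unnamed Vwf and Edn1 cluster, divided by pericentral or vascular markers, and of Dhrs3 in macrophage-like and endothelial-like cells of the same library joined by a line, coloured by group. The lines of the 3 ginkgetin libraries climb more steeply, by 3.59 to 4.28 times, than those of the vehicle libraries, at 1.06 to 1.45 times.

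The other genes of the pathway were read from 4 lists covering carriers and uptake (11 genes), retinyl ester synthesis and hydrolysis (10), retinol and retinal enzymes (22), and receptors, degradation and response (15). In stellate-like, endothelial-like, hepatocyte-like and dendritic-like cells, 0 genes of these lists were called by edgeR in either direction, while 21 of the 85 gene and class pairs tested (24.7%) had an unadjusted p under 0.05, beside 3367 of 27519 pairs (12.2%) over all genes of the same classes. By class the list shares were 18.8% in stellate-like, 26.9% in endothelial-like, 24% in hepatocyte-like and 27.8% in dendritic-like cells, against 6.83%, 13.8%, 14.1% and 12.7% of all genes. Of the 85 pairs, 6 passed the count filter through libraries of 1 group only, namely Cyp26b1 in stellate-like cells, Cyp26b1, Scarb1, Lrp1 and Lpl in hepatocyte-like cells and Rxra in dendritic-like cells, and these had to differ. The genes of lowest p in stellate-like cells were Cyp26b1, which degrades retinoic acid, Lpl, a lipase (log2 fold change -1.92, adjusted p 0.618 by edgeR), and Adh5 (-0.90, 0.724). In endothelial-like cells they were the receptor gene Rarg (0.85, adjusted p by edgeR 0.0859), Lpl (-2.90, 0.148) and the fatty acid carrier Cd36 (-1.35, 0.152). Rarg in endothelial-like cells was at 36.8, 45.0 and 57.1 CPM with vehicle and at 79.1, 87.5 and 112 CPM with ginkgetin, without overlap, beside the Rarb values above.

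Cyp26b1 in endothelial-like cells was at 310, 575 and 257 CPM with vehicle and at 573, 1091 and 1190.2 CPM with ginkgetin, with overlap (log2 fold change 1.08, adjusted p 0.360 by edgeR). With the replicate block Cyp26b1 was called higher in endothelial-like cells (1.17, adjusted p by edgeR 0.0283). The block also called it in stellate-like and hepatocyte-like cells, where it passed the count filter only through ginkgetin libraries and had 1 and 10 UMIs with vehicle against 33 and 74 with ginkgetin, so no fold or p is given for them. The same gene was counted in T cell-like cells, at 3.43, 2.26 and 0.27 CPM with vehicle and 8.17, 42.4 and 8.16 CPM with ginkgetin, against 0, 45.4 and 63.5 CPM in stellate-like cells of ginkgetin 1, 2 and 3. Stellate-like Cyp26b1 was at 0 and 2.32 CPM in vehicle 2 and 3, so the stellate-like groups of Cyp26b1 overlapped, with ginkgetin 1 at 0. In ginkgetin 2, then, stellate-like Cyp26b1 was near the level of T cell-like cells, and in ginkgetin 3 it was above it. The block also called lower Lpl in stellate-like, endothelial-like and dendritic-like cells and Cd36 in endothelial-like cells, and higher Ces1f, a retinyl ester hydrolase, in hepatocyte-like cells. Lpl had 76033 UMIs with vehicle and 4476 with ginkgetin in macrophage-like cells, and 169 and 21 in T cell-like cells. Macrophage markers were lower with ginkgetin in stellate-like, endothelial-like and dendritic-like cells, without overlap. Their part in the values of Lpl was not tested.

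In hepatocyte-like cells the genes of lowest p were Cyp26b1, Rarres2 (log2 fold change -1.37, adjusted p 0.317 by edgeR) and Ces1d (1.68, 0.317), and in dendritic-like cells they were Rxra, Lpl (-2.94, adjusted p by edgeR 0.308) and Adh5 (-0.91, 0.308). In macrophage-like cells 3 of 9 tested genes of the receptor, degradation and response list rose, namely Rxra (log2 fold change 1.34, adjusted p 0.0180 by edgeR), Cyp26b1 (4.05, 0.0209) and Rara (1.37, 0.0426), and 0 fell. The median of that list was 0.51 in macrophage-like cells, against 0.02 over all genes tested, of which 5.54% were called higher and 5.13% lower in this class. Cyp26b1 was abundant in endothelial-like cells, whose markers in macrophage-like cells were 182 to 209 CPM with vehicle and 881 to 1548 CPM with ginkgetin, and their part in its call was not tested. Of the carriers, 2 of 6 tested fell, Cd36 (log2 fold change -1.58, adjusted p 0.0167 by edgeR) and Stra6l, which passed the count filter only through vehicle libraries and had to be lower, and of the ester list 1 of 4, Lpl (-1.25, 0.0306). Among the retinol and retinal enzymes Adh5 fell (log2 fold change -1.35, adjusted p 0.0122 by edgeR) and Bco2, which cleaves carotenoids, rose (1.42, 0.0299), out of 9 tested.

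The list medians in the other classes were of either sign, and they include the genes that passed the count filter through 1 group only. For receptors, degradation and response the median log2 fold change was 0.37 over 7 genes in stellate-like, 0.05 over 9 in endothelial-like, 0.66 over 5 in hepatocyte-like and 0.36 over 6 in dendritic-like cells. For carriers and uptake it was 0.05 over 4, -0.84 over 5, 1.51 over 5 and -0.18 over 4 genes. For the retinol and retinal enzymes it was -0.21, -0.27, 0.04 and -0.85 over 4, 8, 9 and 4 genes, and for the ester list -0.64 over 4 genes in endothelial-like, 0.76 over 6 in hepatocyte-like and 0.31 over 4 in dendritic-like cells. Over all genes tested these medians were between -0.02 and 0.02.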

How the data were processed

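The deposited files were count tables, 1 per library, of UMI counts per gene and cell, made by the authors from 10x reads with no normalization, and the submitters' processing notes name the builds GRCm38 and mm10. The aligner is not given in the sources used here. The labels give a bulk RNA kit in the extraction protocol beside the 10X Genomics description. Depth was 13128697 to 61796882 UMIs per library.

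Cells with 250 to 5000 genes and under 5% mitochondrial UMIs were kept. The study applied the range of 250 to 5000 to UMIs per cell, so the filter on genes used here departs from it. The filter on UMIs, an alternative, kept 16821 cells. Doublets were not removed, because Scrublet called only 1 to 10 cells per library, so removing the top 5% of scores was an alternative. Counts were scaled to 10000 per cell, and 2000 variable genes, 30 components, 15 neighbours and Leiden resolution 1 (scanpy 1.11.5) gave 37 clusters. The 61 genes of the retinoid lists and 3199 genes counted in only 1 barcode set were left out of clustering. A cluster took a name when at least 3 markers were detected in 25% of its cells and at 2 times the level elsewhere, unless its 10 leading genes held more markers of another class or 3 or more cell cycle genes; 3546 cells stayed unnamed. The Vwf and Edn1 cluster showed 3 of 8 endothelial markers but had Sdc1, a plasma cell marker, among its leading genes. Macrophage-like cells were added as a class by the rule for named genes.

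UMIs were summed per library and class (10 cells or more) and fitted per class in R 4.3.3 by edgeR 4.0.16, with TMM scaling, the filterByExpr filter and group as the only term. The edgeR fits were tested on simulated data. DESeq2 1.42.0, other scalings and filters, blocks and left-out libraries were alternatives, as was thinning to 1000 UMIs per cell. The genes, lists and tests were chosen with earlier results of these data known. Full statistics were given to a gene in a class where it passed the filter and reached 20 CPM in either group; of the pathway lists the called genes, or otherwise the 3 of lowest p, and for each gene the 3 closest class profiles were named.

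Same-numbered libraries deviated together, with r of 0.68, 0.63 and 0.91 in endothelial-like cells. In macrophage-like cells r was 0.40, 0.44 and 0.80, and in dendritic-like cells 0.46, 0.52 and 0.79. The replicate number was a block in alternative fits only, and the main fits did not pair libraries. A pairing by number is read from the data alone. Replicates 1 and 2, which share a barcode set, correlated about as well across numbers. Thinning evens out depth only, and the thinned shares were compared over libraries by exact permutation tests.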

Additional observations from a re-analysis of the deposited data

Results flagged for a closer look

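The change of Dhrs3 with ginkgetin differed between cell classes. In macrophage-like minus endothelial-like cells the difference in log2 fold change was -2.0 (edgeR, adjusted p 0.00024), in 1 model of both classes, a comparison added after seeing the data. In separate fits of each class, which are scaled separately and do not add up to that difference, the change was 0.75 in endothelial-like cells, which did not pass its own test, and -1.10 in macrophage-like cells. With the range of 250 to 5000 applied to UMIs per cell the difference was -1.87 (edgeR, adjusted p 7.91e-05). The ratio of the classes within libraries was higher in 3 of 3 ginkgetin libraries than in any vehicle library, and the exact permutation p was 0.1, the smallest possible. Endothelial markers in macrophage-like cells were 182 to 209 CPM with vehicle and 881 to 1548 CPM with ginkgetin, and the cluster makeup of both classes differed between groups. Their part in the difference was not tested.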

How the results depend on the processing

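Over 227 alternative fits of 16 named results, 191 kept direction and side of the threshold, 23 kept direction but lost the call, and 13 turned direction. These fits include 13 of Lrat in macrophage-like cells, and 11 of Rarb and 8 of Rdh10 in stellate-like cells. In the main fits, Lrat and Rarb there passed the count filter only through ginkgetin libraries, and Rdh10 only through vehicle libraries. That filter fixed their side, so nothing is read from their kept direction. Stellate-like cells, at 12 to 65 per library compared, hepatocyte-like cells in ginkgetin 2 (12 cells) and the sparse genes Rdh10 and Aldh1a2 limit what could be seen. The cause of each move below was not tested. The replicate block, the barcode-set block, DESeq2 and every other setting called 0 of the 7 measured retinoid genes in stellate-like, endothelial-like, hepatocyte-like and dendritic-like cells, and the replicate block changed no call of these 7 genes in those classes or in macrophage-like cells. It was not fitted in the other classes. Its calls in the pathway lists are given above.

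Genes called in stellate-like cells, 1 at first, numbered 158 with the barcode-set block, 175 with the replicate block, 17 with DESeq2, 101 with no filter on genes, 0 with the range applied to UMIs, 51 with replicates 1 and 2 only, and 0 to 9 with a library left out. In endothelial-like cells, from 51, they numbered 456, 435, 280, 20, 95 and 338 under the same settings, 19 with a marker gate per cell, 18 without cells with pericentral or vascular markers (chosen after seeing the data), and 0 to 1 with a library left out. In hepatocyte-like cells, from 0, they numbered 74 with the barcode-set block, 149 with the replicate block, 77 with DESeq2, 171 with no filter on genes, 5 with no filter on cells, 152 with replicates 1 and 2 only, and 1 without vehicle 3. In dendritic-like cells, from 0, they numbered 9 with the barcode-set block, 20 with the replicate block and 32 with DESeq2. In macrophage-like cells, from 1078, they numbered 1668 with the barcode-set block, 1620 with the replicate block, 526 with the marker gate, 217 with the range applied to UMIs, and 0 to 1188 with a library left out. The alternatives for macrophage-like cells were added after seeing the data. Of the 3 retinoid genes called there, 0 were called with the marker gate and with the range applied to UMIs, 1 with no filter on genes and with replicates 1 and 2 only, and 0 to 2 with a library left out.

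Dhrs3 in stellate-like cells turned to 0.0898 with replicates 1 and 2 only and to 0.00444 without ginkgetin 3. Aldh1a1 in stellate-like cells turned to -0.0246 with no filter on genes, -0.58 with replicates 1 and 2 only, -0.10 at 5 cells per library (added), and -0.41, -0.05 and -0.13 without vehicle 3, ginkgetin 1 and ginkgetin 3 (left-out range -0.41 to 0.47). Rbp4 turned to 0.24 in endothelial-like (left-out range -3.003, without ginkgetin 2, to -0.17) and 0.39 in hepatocyte-like cells with replicates 1 and 2 only, and in hepatocyte-like cells to 0.17 without ginkgetin 3 (left-out range -1.37 to 0.17) and 0.0487 without the highest doublet scores. Dhrs3 in hepatocyte-like cells turned to -0.12 with the marker gate. Unthinned shares of hepatocyte-like cells with a UMI differed by -3.96 percentage points for Rbp4 and -5.18 for Aldh1a1, against 5.34 and 0.41 thinned. A fit that leaves 1 library in a group assumes that it varies like the other group. Doublet removal for stellate-like cells and the range applied to UMIs for dendritic-like cells gave no value.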
